A study of Mus musculus with 4 samples.

Results

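A set of 5 S100 genes (S100a4, S100a6, S100a10, S100a11 and S100a13) and 5 annexin genes (Anxa1, Anxa2, Anxa4, Anxa5 and Anxa6) was followed across 4 mouse CD4+ T cell arrays. The 10 genes were taken by name: every non-control probe whose gene name, or whose current symbol by accession, was one of them. That gave 14 of 41174 probes, and 10 of the 27593 genes named on the array. Of the 14 probes, 13 were well above background on all 4 arrays, and 1 Anxa4 probe, designed on a cDNA clone, was above background on none.

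The arrays came from BALB/c spleen and lymph node cells, 1 array per group. In the array labelled si-Eos, CD4+CD25+ natural regulatory T cells (Treg) carried a lentiviral hairpin RNA against Eos, the zinc-finger factor encoded by Ikzf4. In the array labelled si-RL, such Treg carried a hairpin against Renilla luciferase, the control. Both of these spent 60 h in culture with human IL-2 before a sort on the virus's GFP reporter, whereas untransduced Treg and naive T cells (CD4+CD25-CD62L-high) were freshly isolated. Transduction, culture and the GFP sort therefore differ together between the hairpin libraries and fresh Treg and cannot be told apart. The number of mice behind each array is not given in the sources used here.

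S100 proteins are small calcium-binding proteins of vertebrates that mostly work as dimers, inside the cell by binding partner proteins and outside it as signals. Annexins bind acidic membrane phospholipids when calcium rises, and take part in membrane repair, vesicle traffic and the control of inflammation. The families meet in defined complexes, such as S100A10 with annexin A2 and S100A11 with annexin A1. Several of these genes are known to be more highly expressed in effector and memory T cells than in naive T cells.

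Levels are given as scaled signal, the processed intensity of a gene's brightest probe as a multiple of the 75th percentile of all probes on the same array. Probes differ in brightness, so scaled signals compare arrays for 1 gene and not genes with each other. Differences are on the log2 scale, and the ± beside them is the scanner software's error for the spots of both arrays combined. With 1 array per group there is no spread between replicates, no test and no p-value. A gene was counted where both arrays were well above background and differed by at least 2-fold.

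The targeted gene goes against the labels. Scaled signal of Ikzf4 on its brightest probe was 0.779 in the si-Eos-labelled library, 0.409 in the si-RL-labelled library, 0.926 in Treg and 0.636 in naive T cells. On all 3 Ikzf4 probes the si-Eos-labelled library was the higher of the hairpin libraries, by 0.93 to 1.96 on the log2 scale. The probes disagreed on its place beside Treg. It was below Treg on the brightest probe but above on the others, at 1.33 against 0.824 and 0.440 against 0.308. Treg exceeded naive T cells by log2 differences of 0.54 on the brightest probe and of 2.67 and 0.61 on the others. Foxp3, the factor that defines Treg, stood at 8.26 in the si-Eos-labelled library and 0.420 in the si-RL-labelled library, against 4.54 in Treg and 0.213 in naive T cells. Every sign between the hairpin libraries below holds for the libraries as labelled.

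Markers of CD4 T cells (Cd4, Cd3e, Lck and others) were above background on all 4 arrays for all 9 genes, and summed to a scaled signal of 327.5 in the si-Eos-labelled library, 201.9 in the si-RL-labelled library, 338.6 in Treg and 389.7 in naive T cells. The si-RL-labelled library stood apart: against Treg, 3 of these 9 genes were at least 2-fold lower (Cd5 -1.76, Cd3e -1.26 and Thy1 -1.03), with a list median of -0.96. Of 8 Treg identity genes, 5 were at least 2-fold lower there, with a median of -2.36, Itgae at -6.59 and Ikzf2 at -3.95 among them. Another 2 of the 8 stood above Treg, Il2ra at 0.46 and Tnfrsf18 at 0.42, and Tnfrsf4 was lower by less than 2-fold (-0.64). Markers of other cells that express S100 genes and annexins were checked as well. The neutrophil gene S100a8 was above background on no array and S100a9 on the si-Eos array alone. Of the myeloid list, 10 of 13 genes on the array were above background somewhere, and its summed scaled signal lay between 1.62 in Treg and 2.07 in the si-RL-labelled library. Single genes moved more: against Treg, Cd68 was 2.55-fold higher in the si-Eos-labelled library and Csf1r 2.04-fold higher in the si-RL-labelled library. No measured gene of that list was 2-fold lower than in Treg in either library. The B cell list (8 of 9 above background somewhere) summed to 2.45 in the si-Eos-labelled library, 1.33 in the si-RL-labelled library, 7.47 in Treg and 4.25 in naive T cells, with Blk above background on none. The NK and CD8 T cell list (7 of 7) summed to 53.9 in the si-Eos-labelled library and to at most 8.74 elsewhere, of which Nkg7 alone made 50.5 in the si-Eos-labelled library. Between the hairpin libraries Klrb1c stood at -0.66, Klrd1 at -0.02 and Cd8a at 0.38, and Ncr1 and Klre1 were above background in Treg alone. The stromal list (4 of 7, with Dcn, Pdgfrb and Cdh5 above background on none) summed to 0.593 in the si-Eos-labelled library, 0.804 in the si-RL-labelled library, 0.996 in Treg and 1.46 in naive T cells. The erythrocyte and platelet list (3 of 5, with Alas2 and Ppbp on none) summed to 0.970, 0.270, 0.439 and 0.401 in that order of arrays. The platelet gene Pf4 was above background on the si-Eos array alone, where it made 0.702 of the sum. Against Treg, Itga2b was 2.83-fold higher in the si-Eos-labelled library, whereas Hba-a1 was 3.27-fold lower there. The part of these cells in the results below was not tested.

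The first group of members is S100a4 and S100a6, neighbours on chromosome 3. S100A4, also called metastasin or Fsp1, binds the heavy chain of nonmuscle myosin IIA and is tied to cell motility. S100A6, or calcyclin, was first known as a growth-regulated gene. S100a4 was 5.02-fold and S100a6 was 4.58-fold higher in Treg than naive T cells, and only S100a4 was low in the hairpin libraries. For that reason the 250 bases upstream of their start sites are shown (RefSeq, GRCm38.p6, plus strand, chr3:90603520-90603769 for S100a4 and chr3:90612644-90612893 for S100a6), with matches to the searched motifs in capitals:
S100a4 promoter: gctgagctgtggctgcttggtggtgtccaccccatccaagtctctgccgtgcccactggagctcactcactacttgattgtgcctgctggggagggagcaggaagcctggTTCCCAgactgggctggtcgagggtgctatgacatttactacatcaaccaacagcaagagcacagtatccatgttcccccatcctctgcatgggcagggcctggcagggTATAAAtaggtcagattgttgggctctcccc
S100a6 promoter: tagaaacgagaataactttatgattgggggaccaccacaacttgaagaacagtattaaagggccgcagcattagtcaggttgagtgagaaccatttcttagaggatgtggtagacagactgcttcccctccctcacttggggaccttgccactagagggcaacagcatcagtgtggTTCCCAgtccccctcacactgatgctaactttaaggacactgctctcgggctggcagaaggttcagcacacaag

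The capitals mark the reverse complement of TGGGAA, the core letters bound by the Ikaros family to which Eos belongs, in both promoters. In S100a4 alone they also mark a TATA box, searched as TATAAA. The Ikaros letters were present, on either strand, in 21.6% of 32851 RefSeq promoter windows of this length, and the TATA letters in 12.4%. A match is a match of letters and not a binding site.

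S100a4 had a scaled signal of 4.24 in the si-Eos-labelled library, 3.75 in the si-RL-labelled library, 25.1 in Treg and 4.99 in naive T cells. Fresh Treg stood alone at the top, and the other 3 arrays lay close together, with each neighbouring pair within 2 scanner errors. The S100a4 probe lies at chr3:90691847-90691907 in mm8, the build of the file headers. Which exon or UTR the probes hit was not analysed here.

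S100a6 had a scaled signal of 8.07 in the si-Eos-labelled library, 8.90 in the si-RL-labelled library, 7.50 in Treg and 1.64 in naive T cells (probe chr3:90700165-90700224, mm8). Here naive T cells stood alone at the bottom, and the other 3 arrays differed from their neighbours in level by no more than 2 scanner errors. The starts of the S100a4 and S100a6 probes are 8.32 kb apart.

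The remaining S100 genes had narrower spreads. S100a10, which is locked in its active form without calcium and pairs with annexin A2, had 45.5 in the si-Eos-labelled library, 29.4 in the si-RL-labelled library, 33.2 in Treg and 20.1 in naive T cells (chr3:93649919-93649978). It was lowest in naive T cells and highest in the si-Eos-labelled library, a spread of 2.26-fold. S100a11, a partner of annexin A1, had 3.45, 2.85, 3.39 and 2.46 in the same order (chr3:93611499-93611558). Its whole spread was 1.40-fold, and no neighbouring pair of arrays was more than 2 scanner errors apart.

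S100a13, which takes part in the release of FGF1 and IL-1α by a route outside the secretory pathway, had a scaled signal of 18.3 in the si-Eos-labelled library, 14.8 in the si-RL-labelled library, 8.14 in Treg and 10.2 in naive T cells. Both cultured libraries were above both fresh samples. Its probe spans chr3:90601955-90610324, a stretch longer than the probe itself.

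**Figure D1:**
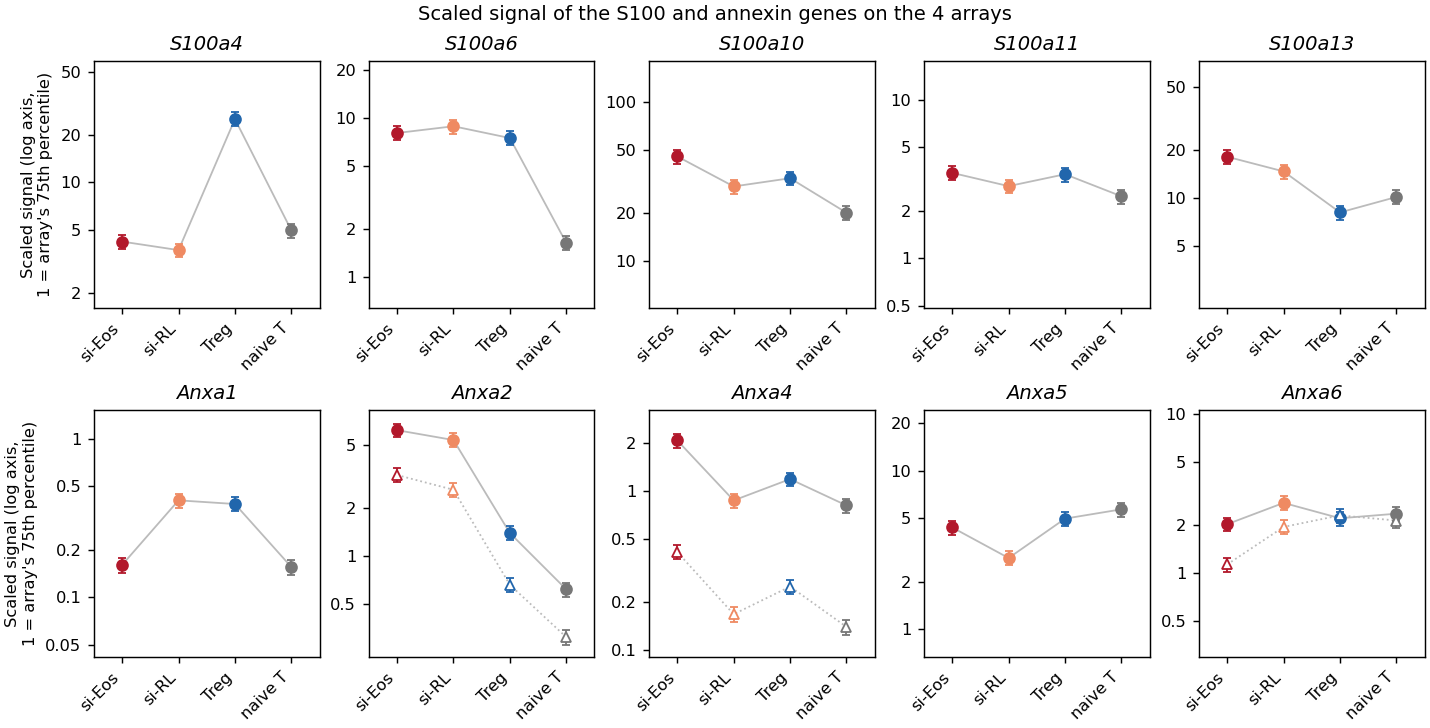
Scaled signal (log axis, 1 is the array's 75th percentile) of the 10 genes on the si-Eos, si-RL, Treg and naive T arrays, with bars of 1 scanner error. Filled circles are the brightest probe and open triangles a second probe above background on all arrays. Treg stand alone for S100a4 (25.1), naive T cells for S100a6 (1.64), and both cultured libraries stand above both fresh samples for Anxa2 and S100a13.

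Among the annexins, Anxa2 had the widest spread, and Anxa1 (2.63-fold) and Anxa4 (2.57-fold) followed within a scanner error of each other. Annexin A1 (lipocortin 1) is known for limiting inflammation through the formyl peptide receptor Fpr2. Annexin A2, with S100A10, links membranes to the actin cortex and binds plasminogen and its activator at the cell surface. Both were over 2-fold higher in Treg than naive T cells and then separated in the hairpin libraries, so their upstream 250 bases are shown too (RefSeq, GRCm38.p6, chr19:20390672-20390921, minus strand, and chr9:69453433-69453682, plus strand):
Anxa1 promoter: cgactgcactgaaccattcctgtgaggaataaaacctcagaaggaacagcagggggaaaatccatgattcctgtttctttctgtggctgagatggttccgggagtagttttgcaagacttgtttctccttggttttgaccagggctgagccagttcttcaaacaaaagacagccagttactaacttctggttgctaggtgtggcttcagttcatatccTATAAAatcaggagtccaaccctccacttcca
Anxa2 promoter: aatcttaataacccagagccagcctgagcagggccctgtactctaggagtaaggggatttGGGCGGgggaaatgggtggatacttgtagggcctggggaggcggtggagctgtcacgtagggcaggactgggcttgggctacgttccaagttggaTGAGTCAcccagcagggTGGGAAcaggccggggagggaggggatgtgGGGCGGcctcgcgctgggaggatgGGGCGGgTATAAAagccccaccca

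In Anxa1 the capitals mark a single TATAAA. In Anxa2 they mark TGAGTCA, a match to the AP-1 motif TGANTCA held by 6.75% of all windows, one TGGGAA, 3 copies of GGGCGG (GC box, 32.7% of all windows) and TATAAA. Neither the forkhead motif TGTTTAC (3.17% of all windows) nor the STAT motif TTCNNNGAA (7.02%) matched, on either strand, in any of the 9 windows of the 8 members in the table. S100a10 and Anxa6 have no window there. Among those 9 windows TATAAA matched in 3, TGGGAA in 3, TGANTCA in 2 and GGGCGG in 2. None of these motifs overlapped in the 4 sequences shown.

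Anxa1 had a scaled signal of 0.160 in the si-Eos-labelled library, 0.409 in the si-RL-labelled library, 0.388 in Treg and 0.155 in naive T cells. The si-RL-labelled library was level with Treg and the si-Eos-labelled library with naive T cells, each pair within 2 scanner errors. It was a dim probe (chr19:20440781-20442294, a stretch longer than the probe), with processed intensities of 51.3 in the si-Eos-labelled library, 107 in the si-RL-labelled library, 152 in Treg and 47.1 in naive T cells.

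Anxa2 had a scaled signal of 6.21 in the si-Eos-labelled library, 5.38 in the si-RL-labelled library, 1.40 in Treg and 0.617 in naive T cells (chr9:69288867-69288926). The arrays made 3 steps, naive T cells lowest, Treg above them and both hairpin libraries at the top, a 10.1-fold spread that was the widest of the 10 genes. The second Anxa2 probe (chr9:69282203-69282977) gave the same order, with 3.24, 2.62, 0.659 and 0.308.

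Anxa4, an annexin found mainly in epithelia, had 2.09 in the si-Eos-labelled library, 0.875 in the si-RL-labelled library, 1.19 in Treg and 0.814 in naive T cells (chr6:86702663-86702723). The si-Eos-labelled library was highest, and the si-RL-labelled library was within 2 scanner errors of naive T cells. The second probe gave the same order, with 0.414, 0.168, 0.251 and 0.140.

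Anxa5, whose protein is the reagent for exposed phosphatidylserine on dying cells, had 4.39 in the si-Eos-labelled library, 2.82 in the si-RL-labelled library, 4.99 in Treg and 5.71 in naive T cells (chr3:36640692-36640751). The si-RL-labelled library was the low one, and the other 3 arrays were each within 2 scanner errors of their neighbour. Anxa6, the largest annexin, had 2.03, 2.76, 2.21 and 2.36 in the same order (chr11:54828509-54828568), with no neighbouring pair more than 2 scanner errors apart. Its second probe (chr11:54834628-54834687), designed on a cDNA clone, had 1.13 in the si-Eos-labelled library, 1.95 in the si-RL-labelled library, 2.31 in Treg and 2.14 in naive T cells, so the Anxa6 probes ranked the arrays differently.

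The comparison of fresh Treg with naive T cells asks what sets these cells apart, though a CD62L gate is recorded for the naive cells and not for Treg. S100a4 and S100a6 were the furthest above naive T cells, by 2.33 ± 0.20 and 2.20 ± 0.20. Anxa1 and Anxa2 were higher by 1.32 ± 0.21 and 1.18 ± 0.20. These were 4 of the 10 genes, and none was 2-fold lower. Of all 17586 genes measured in this comparison, 5.50% were at least 2-fold higher and 2.04% at least 2-fold lower.

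By size, S100a4 ranked 232 and S100a6 ranked 284 from the top of those 17586 genes. S100a10 (0.72 ± 0.20), Anxa4 (0.55 ± 0.20) and S100a11 (0.46 ± 0.20) were higher by more than 2 scanner errors but under 2-fold. S100a13 (-0.32 ± 0.20), Anxa5 (-0.19 ± 0.20) and Anxa6 (-0.10 ± 0.20) were within 2 scanner errors. The median of the 10 was 0.64, beside -0.02 for all measured genes. The B cell list summed to 7.47 in Treg and 4.25 in naive T cells, and its part in these differences was not tested. Anxa2 was under 2-fold with arrays scaled to their medians (0.97), and Anxa1 (0.96) and Anxa2 (0.85) with normexp background correction, whereas S100a10 passed 2-fold without scaling (1.09).

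Of 17 other genes of activated and memory T cells, 13 stood above 0 in Treg against naive T cells and 8 past 2-fold, none stood 2-fold lower, and the list median was 0.61. Il2rb, the IL-2 receptor β chain, was higher by 3.82, Capg, an actin-capping protein, by 2.03 and Gzmb, the cytolytic granzyme B, by 1.68. Lgals3 (galectin 3) was higher by 1.51, Ahnak, a large scaffold protein that binds the S100A10 and annexin A2 complex, by 1.49 and Prdm1 (Blimp-1) by 1.44. The genes of this list below 0 were Emp3 (-0.99), Crip1 (-0.92), Tagln2 (-0.72) and Itgb7 (-0.27). The list of naive and quiescent T cells had 8 of 12 genes at least 2-fold lower and none higher, with a median of -1.34. Dapl1 differed by -4.03, Igfbp4 by -3.30 and Lef1, a transcription factor of naive T cells, by -2.14.

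**Figure D2:**
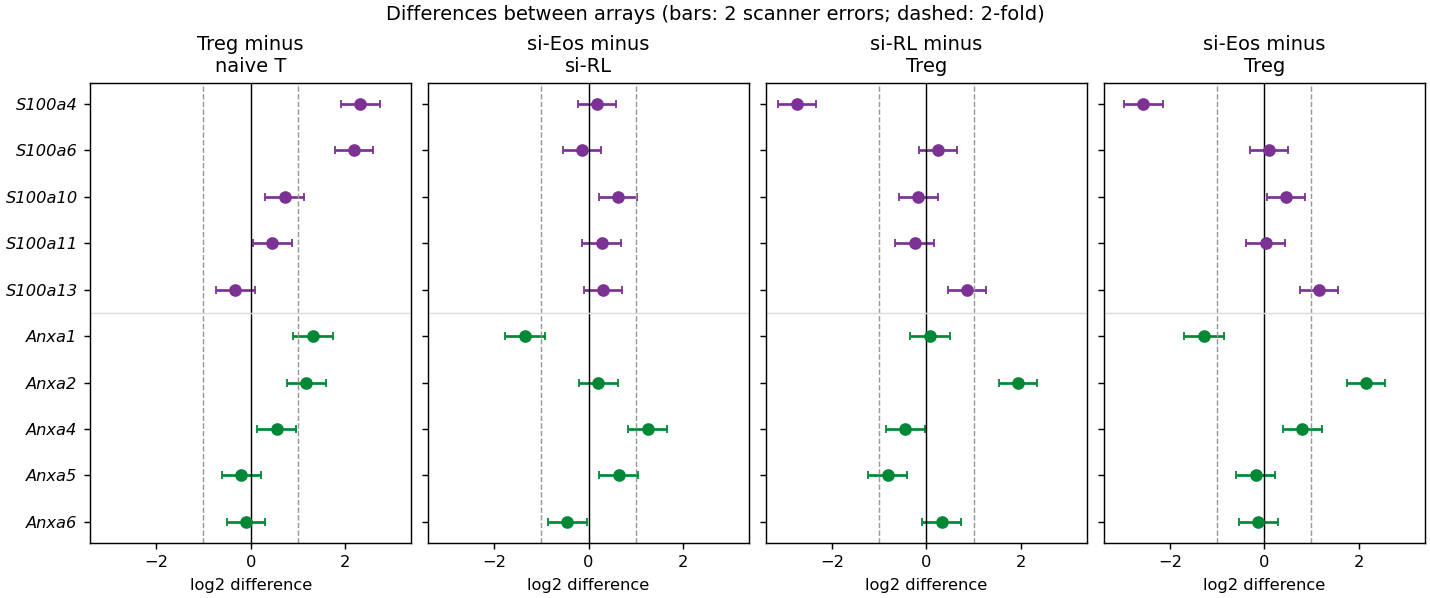
Log2 differences of the 10 genes in the 4 comparisons, with bars of 2 scanner errors and dashed lines at 2-fold. S100a4 is far above 0 in Treg minus naive T (2.33) and far below it in both comparisons of hairpin libraries with Treg (-2.56 for si-Eos and -2.74 for si-RL), while Anxa2 is above 2-fold in 3 panels and near 0 between the hairpin libraries (0.21).

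The hairpin libraries were compared to see what differed between the Eos hairpin and the control hairpin, as labelled. The S100 genes were close: all 5 differed by less than 2-fold, and 4 of the 5 by less than 2 scanner errors. S100a4 differed by 0.18 ± 0.20, S100a6 by -0.14 ± 0.20, and S100a10 by 0.63 ± 0.20. Of the annexins, Anxa4 was higher in the si-Eos-labelled library by 1.26 ± 0.20 and Anxa1 was lower there by a log2 difference of -1.35 ± 0.21. So 1 of the 10 genes was at least 2-fold higher and 1 at least 2-fold lower, beside 10.7% and 10.1% of 17076 measured genes.

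Anxa5 (0.64 ± 0.20) was higher by more than 2 scanner errors, Anxa6 (-0.45 ± 0.20) was lower, and Anxa2 (0.21 ± 0.20) was within them. The second probes gave 1.30 for Anxa4, 0.31 for Anxa2 and -0.79 for Anxa6. With normexp background correction Anxa1 was no longer 2-fold apart (-0.84), and without scaling S100a6 turned to 0.15. With the labels exchanged, every sign in this comparison would turn.

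In the same pair of libraries the other genes of activated and memory T cells were spread far more widely. Of 17, 6 were at least 2-fold higher in the si-Eos-labelled library and 1 lower, with a median of 0.69. Gzmb was higher by 3.89, Capg by 3.65, Lgals3 by 2.96, the adhesion receptor gene Cd44 by 2.76 and Prdm1 by 2.45. Lgals1 (galectin 1) was higher by 1.82, and Itgb7, which encodes an integrin, stood at -1.13. The naive and quiescent list had 7 of 12 genes at least 2-fold lower and 1 higher, with a median of -1.54. Among the lower were S1pr1 (-6.41), Dapl1 (-4.91) and Tcf7 (-4.53), and the higher one was Ccr7 (1.49). The 10 S100 and annexin genes had a median of 0.24, beside 0.04 for all measured genes. Whether the 10 genes differ less than the list of 17 was not tested. At 2-fold, S100a4, S100a6, Anxa1 and Anxa2 were higher in fresh Treg than naive T cells, which differ in cell type and in the recorded CD62L gate. The 10 genes were chosen with earlier results of these data known, so these values cannot check the set's name, "of activated cells". Between the hairpin libraries Anxa4 went with the higher genes of the list of 17 and Anxa1 against them. Exchanged labels would turn the signs of all these genes together, so Anxa4 would still go with those genes and Anxa1 against them. S100a4 was no higher in either cultured library than in naive T cells (4.24 in the si-Eos-labelled library and 3.75 in the si-RL-labelled library, against 4.99).

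**Figure D3:**
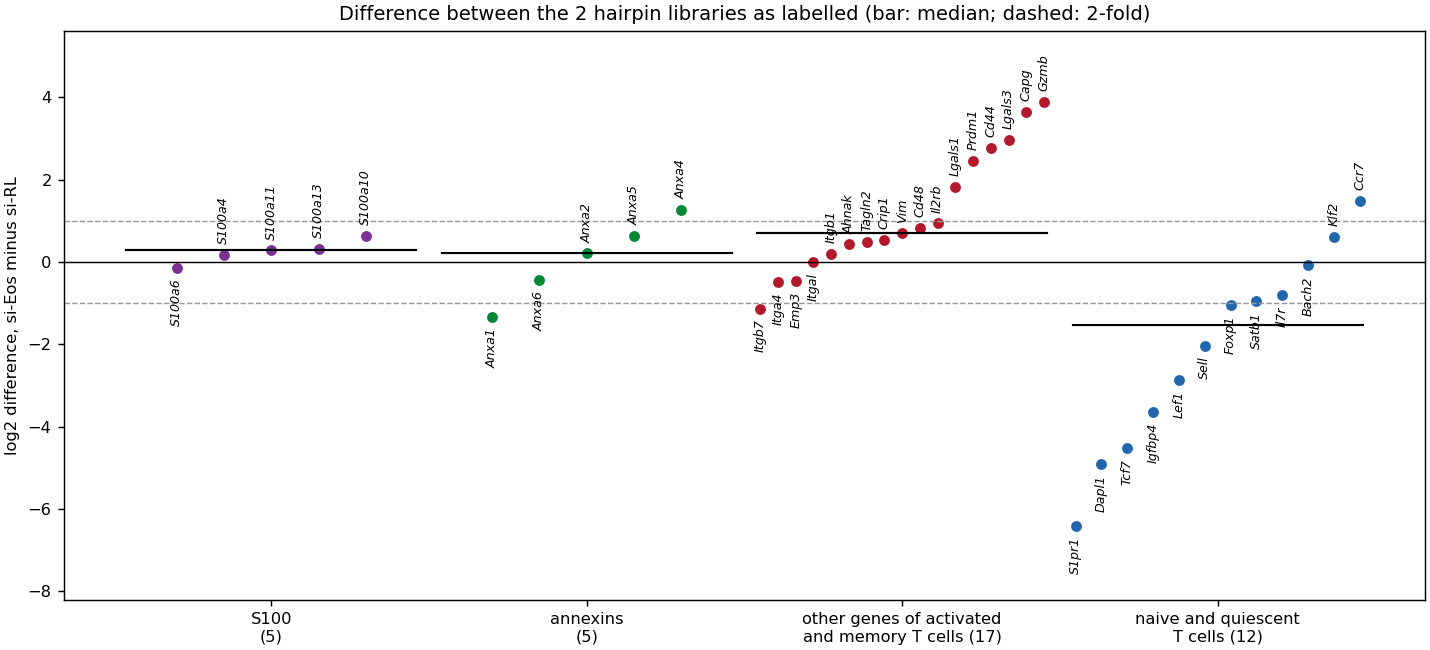
Log2 difference between the si-Eos-labelled library and the si-RL-labelled library for the 5 S100 genes, the 5 annexins, 17 other genes of activated and memory T cells and 12 genes of naive and quiescent T cells (points; bar, median; dashed lines, 2-fold). The S100 genes lie between -0.14 and 0.63, whereas genes of the third list reach 3.89 and genes of the fourth -6.41.

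Both hairpin libraries were set against the same fresh Treg array, so these comparisons share it and likeness between them comes in part from that array. In the si-RL-labelled library, S100a4 was 6.69-fold lower than in Treg (-2.74 ± 0.20) and Anxa2 was 3.85-fold higher (1.95 ± 0.20). Of the 10 genes these were the only ones at least 2-fold lower and higher, beside 8.20% and 7.88% of 17075 measured genes. S100a4 ranked 196 from the bottom and Anxa2 ranked 262 from the top of those genes.

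S100a13 (0.86 ± 0.20) was higher, and Anxa5 (-0.82 ± 0.20) and Anxa4 (-0.45 ± 0.20) were lower, by more than 2 scanner errors but under 2-fold. The other 5 genes were within 2 scanner errors of Treg: Anxa1 at 0.08, S100a6 at 0.25, Anxa6 at 0.32, S100a10 at -0.17 and S100a11 at -0.25. The median of the 10 was -0.05, beside -0.01 for all measured genes. Anxa5 passed 2-fold lower with spike-in scaling (-1.23) and without scaling (-1.40), Anxa4 without scaling (-1.03), and S100a13 passed 2-fold higher with normexp background correction (1.27). Beside these differences, the naive and quiescent list had 8 of 12 genes at least 2-fold higher in the si-RL-labelled library and none lower, with a median of 1.24, and the Treg identity list 5 of 8 lower. The CD4 T cell list had 3 of 9 lower, and the B cell list summed to 1.33 in the si-RL-labelled library and 7.47 in Treg. The part of these shifts was not tested.

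In the si-Eos-labelled library, S100a4 was 5.91-fold lower than in Treg (-2.56 ± 0.20) and Anxa1 2.42-fold lower (-1.27 ± 0.21). Anxa2 was 4.45-fold higher (2.15 ± 0.20) and S100a13 was 2.24-fold higher (1.17 ± 0.20). That made 2 of 10 genes at least 2-fold higher and 2 lower, beside 8.84% and 10% of 17889 measured genes. S100a4 ranked 303 from the bottom and Anxa2 ranked 309 from the top.

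Anxa4 (0.81 ± 0.20) and S100a10 (0.46 ± 0.20) were higher by more than 2 scanner errors but under 2-fold. S100a6 at 0.11, S100a11 at 0.03, Anxa5 at -0.18 and Anxa6 at -0.12 were within them, although the second Anxa6 probe was lower at -1.03. The median of the 10 was 0.07, beside 0.06 for all measured genes. S100a13 was under 2-fold with spike-in scaling (0.83) and without scaling (0.87), and S100a10 passed 2-fold with normexp background correction (1.06). Beside these differences, the naive and quiescent list had 2 of 12 genes at least 2-fold higher and 5 lower, the Treg identity list 2 of 8 higher and 1 lower, and the CD4 T cell list 1 of 9 lower. The B cell list summed to 2.45 in the si-Eos-labelled library and 7.47 in Treg. The part of these shifts was not tested.

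Among the 17 other genes of activated and memory T cells, Gzmb was the furthest from Treg in both hairpin libraries, 236-fold higher in the si-Eos-labelled library and 15.9-fold higher in the si-RL-labelled library. On the log2 scale, Lgals3 stood at 1.81 in the si-Eos-labelled library and -1.15 in the si-RL-labelled library. Capg stood at 1.65 in the si-Eos-labelled library and -2.00 in the si-RL-labelled library. Itgb1, the integrin β1 chain, stood at -1.38 and -1.58 in that order of libraries, Itgal, the integrin αL chain, at -1.48 and -1.47, and Itga4, the integrin α4 chain, at -1.63 and -1.15. In the si-Eos-labelled library, Cd44 (1.78) and Lgals1 (1.69) were higher as well. Over the 17 genes, 7 were at least 2-fold higher than in Treg and 5 lower in the si-Eos-labelled library, and 1 was higher and 5 lower in the si-RL-labelled library.

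**Figure D4:**
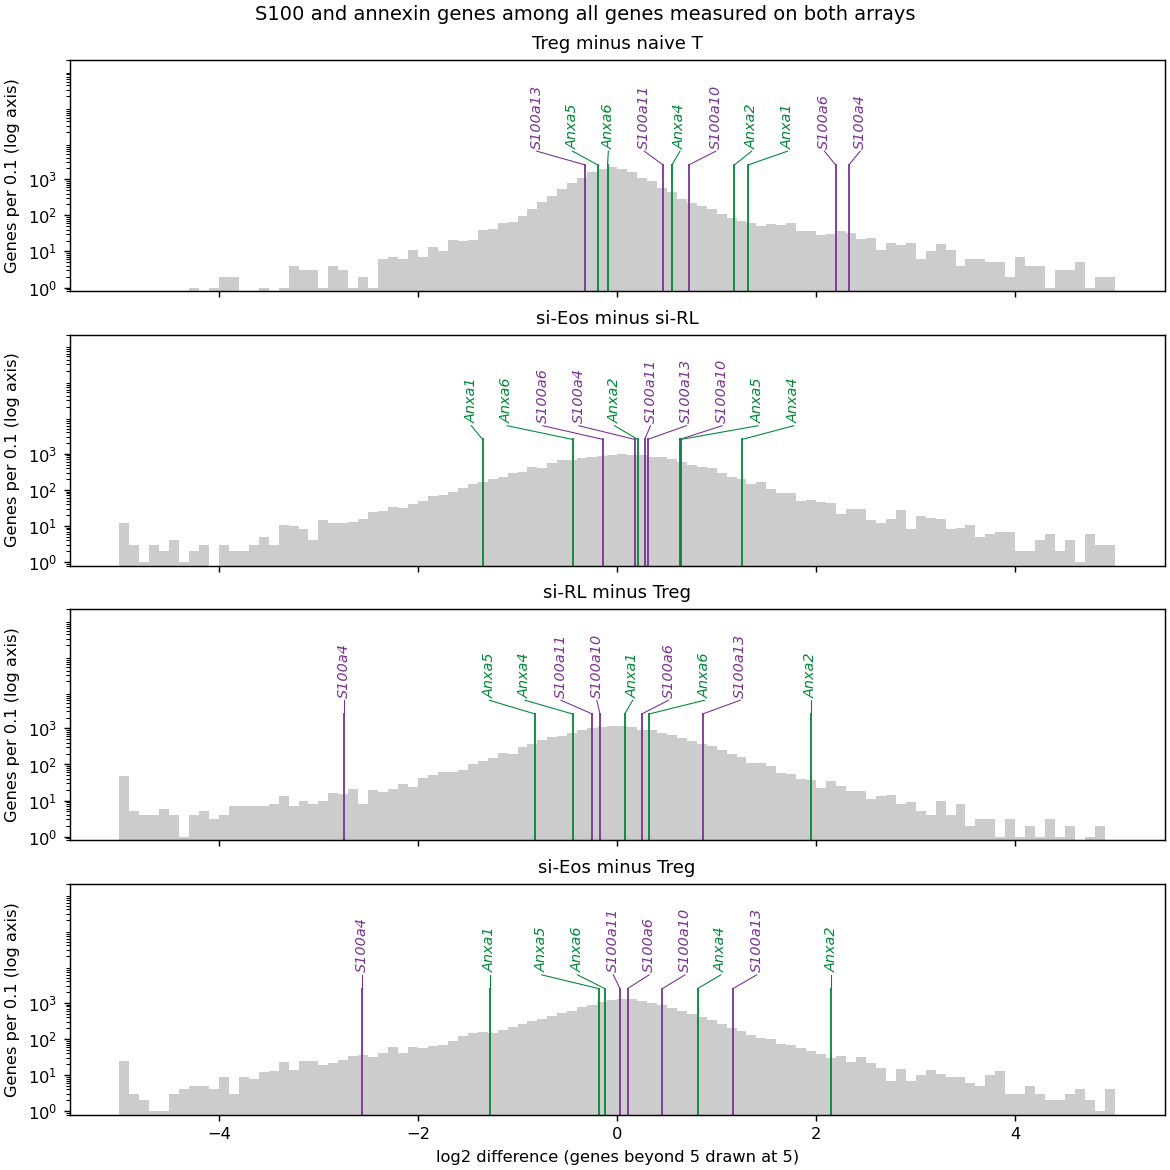
Distribution of the log2 difference over all genes measured on both arrays in each comparison (grey, genes per 0.1, log axis, values beyond 5 drawn at 5), with the S100 genes in purple and the annexins in green. S100a4 and Anxa2 lie in the outer parts of both distributions against Treg, and the 10 genes lie within -1.35 and 1.26 between the hairpin libraries.

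The S100 genes of chromosome 3 did not follow S100a4 as a block. S100a3, whose probe lies 3.45 kb before that of S100a4, was lower than in Treg by log2 differences of -1.49 in the si-Eos-labelled library and -1.58 in the si-RL-labelled library. Its processed intensities were 78.2 in the si-Eos-labelled library, 60.0 in the si-RL-labelled library, 269 in Treg and 163 in naive T cells, and Treg exceeded naive T cells by only 0.35. S100a5, whose probe lies between those of S100a4 and S100a6, stood against Treg at 0.07 in the si-Eos-labelled library and 0.61 in the si-RL-labelled library. Both were within 2 scanner errors. Its probe was dim, with processed intensities of 16.8 in the si-Eos-labelled library, 20.1 in the si-RL-labelled library, 19.7 in Treg and 16.9 in naive T cells. S100a1, next to S100a13 at the other end of the cluster, was higher than in Treg by 2.49 and 0.96.

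Of the 10 other S100 genes on the array, 7 were above background somewhere. S100a14 (0.82 in the si-Eos-labelled library and 0.58 in the si-RL-labelled library) and S100b (0.70 and 0.50) stood above Treg by less than 2-fold. S100b in the si-RL-labelled library was within 2 scanner errors of Treg. Both probes were dim, with processed intensities over the arrays of 20.4 to 31.4 for S100a14 and 27.0 to 38.7 for S100b. S100a7a, S100a8 and S100g were above background on no array, and S100a9 on the si-Eos array alone, where it was at least 2.23-fold higher than in Treg. Such a bound divides the bright array's level by the higher of the dim probe's own level and the lowest level well above background on its array. S100a16 was above background in the si-Eos-labelled library and in naive T cells, at least 1.67-fold higher in the si-Eos-labelled library than in Treg.

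**Figure D5:**
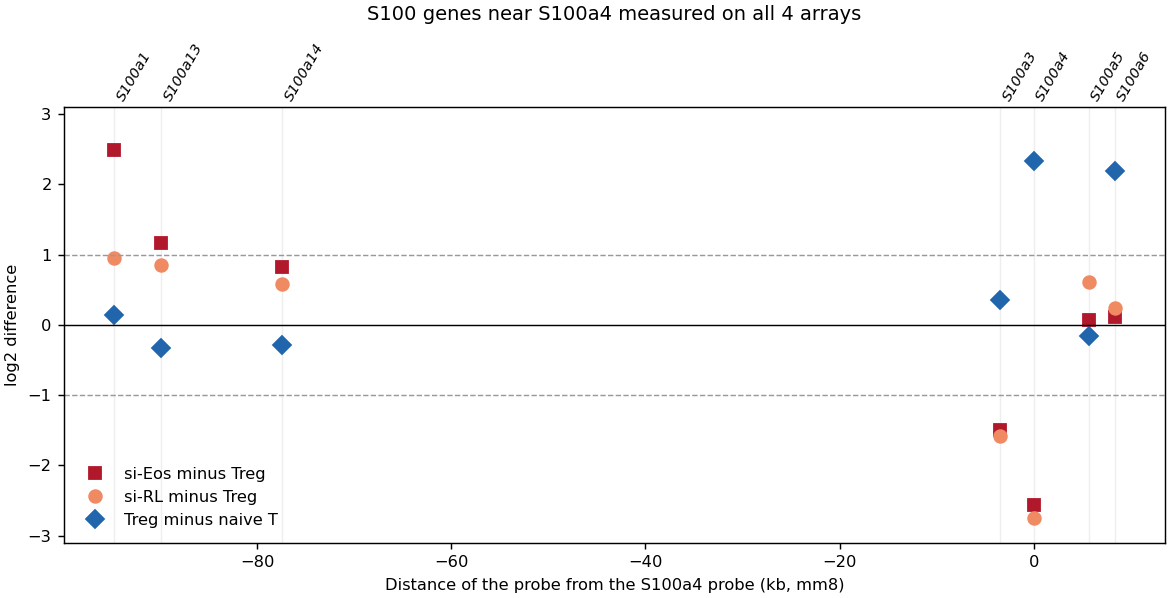
Log2 differences of the S100 genes measured on all 4 arrays near S100a4, against the distance of their probes from the S100a4 probe (kb, mm8). S100a3 and S100a4 lie below -1 in both comparisons of hairpin libraries with Treg, S100a5 and S100a6 near 0 or up to 0.61, and S100a1, S100a13 and S100a14 above 0. S100a5 is a dim probe and lies within 2 scanner errors of Treg in both.

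Of the 7 other annexins, 6 were above background somewhere. Anxa7, a widely expressed annexin, was higher than in Treg by 0.81 in the si-Eos-labelled library and 1.30 in the si-RL-labelled library. Anxa11 was higher by 0.90 in the si-Eos-labelled library, and stood at -0.07 in the si-RL-labelled library. Anxa13 was 1.34 higher in Treg than naive T cells, and -0.71 and -0.74 in the libraries labelled si-Eos and si-RL against Treg. Anxa3 was above background only in the si-Eos-labelled library, where it was at least 8.44-fold higher than in Treg, as was Anxa8, at least 2.50-fold. Anxa9 was above background in Treg and not in naive T cells, at least 2.12-fold higher.

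Of 19 genes for binding partners and receptors of the 2 families, 16 were above background somewhere, and Fpr1 and Fpr2, the receptors for annexin A1, on none. Of 13 measured in Treg and naive T cells, 2 were at least 2-fold higher in Treg: Ahnak (1.49) and Tlr4 (1.62), a receptor reported for several extracellular S100 proteins. Plg, the gene of plasminogen, was at least 2.73-fold lower in Treg, where it was not well above background. Between the hairpin libraries none of the 12 measured genes was 2-fold apart, with Ahnak at 0.42 and Cacybp, the calcyclin-binding protein, at 0.92. Plau, the urokinase plasminogen activator, was not well above background in the si-RL-labelled library and at least 2.70-fold higher in the si-Eos-labelled library. In the si-Eos-labelled library against Treg, 1 of 13 measured genes was lower by 2-fold, Fgf1 (-2.25). In the si-RL-labelled library against Treg, 1 of 11 was, Tlr4 (-1.63), while Fgf1 was at least 4.79-fold and Plau at least 2.77-fold lower there. Myh9, the myosin heavy chain that S100A4 binds, differed from Treg by -0.51 in the si-Eos-labelled library and -0.43 in the si-RL-labelled library. In these bulk samples, fewer cells of a type and less RNA per cell cannot be told apart for any gene.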

How the data were processed

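Amplified RNA of 4 samples was hybridised to 1-colour Agilent arrays, per the labels' protocols. The authors deposited each array's linear spot intensity as the scanner software wrote it (Feature Extraction 9.5.3.1). That software, per the file headers, subtracted background and detrended the signal, did not normalize between arrays, and placed probes on mm8. All 4 arrays were on 1 slide in 1 scan. The deposited value table held the same intensity: 100% of spots agreed within 0.5%.

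From the deposited values, log2 processed intensity minus each array's 75th percentile over non-control probes was computed (pandas 2.3.3). That percentile was 320 in the si-Eos-labelled library, 262 in the si-RL-labelled library, 392 in Treg and 303 in naive T cells, and 64.0% to 68.3% of probes were well above background. Outlier-flagged spots (71 to 94 per array) were left out, no non-control spot was saturated, and spots of 1 probe were averaged. Symbols came from RefSeq (GRCm38.p6) by accession for 24375 probes, by current symbol for 6301 and by a single synonym for 2426, and 8072 kept the file's name. Each gene was represented by its brightest probe. The number of arrays limits the precision. The counting of 2-fold differences was tested on simulated data.

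The alternatives were 4 other scalings and no scaling, normexp background correction (limma 3.58.1, offset 50), the mean of probes, no filter on dim probes, flagged spots kept, and the value table. A gene of the list of activated and memory T cells is not reported here and was left out of its counts. The members and lists were chosen with earlier results of these data known. Named were the 10 genes, the other S100 and annexin genes above background, Ikzf4 and Foxp3, up to 6 genes per list and comparison, those with the widest differences of at least 2-fold, and the 5 genes nearest in pattern to 5 members. Itgb7, Emp3, Crip1, Tagln2, Ccr7, Cacybp, Myh9, Fpr1, Fpr2, Plg, Plau, the marker genes and values repeated for a second comparison were chosen after they were seen.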

Additional observations from a re-analysis of the deposited data

Results flagged for a closer look

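Anxa4 went opposite ways in the hairpin libraries against the same fresh Treg array. It was above Treg by 0.81 in the si-Eos-labelled library and below Treg, at -0.45, in the si-RL-labelled library, each by more than 2 scanner errors, and the second Anxa4 probe gave 0.72 and -0.58. The difference between these effects was not tested, since each rests on 1 array.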

How the results depend on the processing

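No paired analysis was possible because each group is 1 array and the labels give no replicate numbers. Of the 12 differences of at least 2-fold among the 40 member differences, none turned its sign under the 10 alternatives, and 8 stayed past 2-fold under all of them: S100a4 in 3 comparisons, S100a6 in Treg against naive T cells, Anxa2 in both hairpin libraries against Treg, Anxa1 in the si-Eos-labelled library against Treg, and Anxa4 between the hairpin libraries. Over all 40, 27 kept their sign. Of 80 recomputed counts, 73 were within 1.5 times the reported count. These totals include alternatives that could hardly move a member: no filter on dim probes, flagged spots kept and the value table. The 10 genes were above background on all 4 arrays, few spots were flagged, and the value table held the same intensity. The mean of probes could change only Anxa2, Anxa4 and Anxa6. With spike-in scaling, 2 members were lower than Treg in the si-RL-labelled library, beside 3125 of 17075 measured genes. In the si-Eos-labelled library 1 member was higher than Treg, beside 898 of 17889. Without scaling these counts were 3, beside 4326 genes, and 1, beside 955. With normexp, 2 members were higher in Treg than naive T cells, beside 1878 of 17566 measured genes. In the si-Eos-labelled library 0 were lower than in the si-RL-labelled library, beside 831 of 17069. In the si-RL-labelled library 2 were higher than in Treg, beside 961 of 17065. The cause was not tested.

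Over all genes the counts of higher and lower genes also moved with the setting. With no filter on dim probes all 27593 genes were counted, not only the measured ones. That setting gave the upper ends of 2140, 982, 3570, 2861, 2581 and 3021, and the median shifts of -0.10 and 0.14. For Treg against naive T cells the counts were 967 and 359, with ranges of 768 to 2140 and 158 to 982. Between the hairpin libraries they were 1828 and 1724 (1138 to 3570 and 831 to 2861), for the si-RL-labelled library against Treg 1345 and 1400 (446 to 2581 and 1237 to 4455), and for the si-Eos-labelled library against Treg 1581 and 1793 (898 to 3021 and 1555 to 5850). The share of higher genes in the same order was 72.9% (55.1% to 91.5%), 51.5% (47.2% to 75.1%), 49.0% (9.35% to 56.4%) and 46.9% (19.8% to 55.8%). The median of all genes moved by -0.21 to 0.37, -0.10 to 0.29, -0.58 to 0.14 and -0.42 to 0.12.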

Other observations

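The genes whose pattern over the 4 arrays was nearest to a member were sought among 16441 other genes above background on all arrays, by the root mean square distance between levels centred on each gene's mean. For S100a4 they were Serpina9 (0.11), Zan (0.15), Il17rb (0.18), Susd4 (0.21) and Gprasp2 (0.22). For S100a6 they were Pclaf (0.12), D16Bwg1543e (0.14), AK084472 (0.17), Spc24 (0.17) and Ska1 (0.18). For Anxa2 they were Rps27l (0.13), Tafa3 (0.21), H1f0 (0.23), Rapgef3 (0.25) and Fam83h (0.26). For Anxa1 they were Ncoa7 (0.06), D230038C21 (0.11), Ptprf (0.12), Heg1 (0.15) and AK081855 (0.15). Anxa6, nearly flat over the arrays, had its 5 nearest genes within 0.02. With only 4 arrays such distances are a description of these libraries.

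S100a10 and Anxa4 were the closest pair among the 10 genes, at 0.23, where Anxa4 ranked 643 among the genes nearest to S100a10 and S100a10 ranked 484 among those nearest to Anxa4. The nearest member to Anxa2 was S100a6, at 0.78 and rank 502, and the nearest to S100a6 was S100a10, at 0.70 and rank 797. For S100a4 it was Anxa5, at 1.01 and rank 2581, and for Anxa5 it was S100a11, at 0.45 and rank 6703. S100a10 and Anxa2, whose proteins form a complex, differed in level order: against Treg, the si-RL-labelled library stood at -0.17 for S100a10, within 2 scanner errors, and at 1.95 for Anxa2.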
